A study of Mus musculus with 2 samples.

Results

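The genes described here are the 40 that encode the core DNA replication machinery, taken by symbol from the 25906 genes of the deposited single-cell files. All 40 were found in both libraries. By role they fall into the 6 subunits of the MCM helicase, the 6 subunits of the origin recognition complex, the 2 licensing factors Cdc6 and Cdt1, 6 helicase-activating factors (Mcm10, Cdc45 and the GINS subunits Gins1 to Gins4), the 4 subunits of DNA polymerase alpha and primase, 5 subunits of polymerases delta and epsilon, the sliding clamp Pcna with the 5 clamp loader subunits, the 3 RPA subunits, and the Okazaki fragment enzymes Fen1 and Lig1.

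Replication starts at origins bound by the origin recognition complex. In G1, Cdc6 and Cdt1 load the ring-shaped MCM helicase there, and at the entry into S phase Cdc45, GINS and Mcm10 turn the loaded rings into active helicases. Primase and polymerase alpha then start new strands, Pcna and its loader hold polymerases delta and epsilon on the template, RPA coats single-stranded DNA, and Fen1 and Lig1 join the lagging-strand pieces. Many of these genes are transcribed under E2F factors, which the retinoblastoma family holds back outside the cell cycle, and skeletal muscle precursors leave the cycle as they differentiate.

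The cells were mouse induced myogenic progenitor cells (iMPCs), a proliferating culture obtained from embryonic fibroblasts that also forms muscle cells. Fibroblasts labelled MyoD-WT or MyoD-KO, both of strain label Myod1tm1Jae, had been converted by overexpressed Myf6, a muscle transcription factor, with forskolin at 5 µM, RepSox at 5 µM and CHIR99021 at 3 µM, and 1 colony of each that no longer depended on Myf6 was grown to passage 4 in the same 3 compounds with bFGF at 10 ng/mL. A single 3' tag library was made per clone, so there are no replicates, a difference between the libraries is a difference between 2 clones, and every interval (95%) covers counting error only. A unique molecular identifier (UMI) marks each captured transcript. The kept cells number 7316 in WT, with 279006808 UMIs and a median of 35516 per cell, and 5638 in KO, with 240970199 UMIs and a median of 40427. Myod1 was at 162 CPM (UMI counts scaled to a total of 1000000 over the summed cells) in WT and 63.3 CPM in KO. Tags from a retained part of the gene would still be counted, so this level checks nothing about the genotype label. The 2 libraries share 14 barcodes.

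The promoters of 33 of the 40 genes were found in the RefSeq promoter table (GRCm38.p6, another build than the GRCm39 named for these files), in windows of 250 bases before to 50 bases after each start site. Not in that table were Mcm4, Gins1, Gins2, Gins4, Prim2, Pole and Rfc2. The windows were searched on both strands for 4 E2F-type motifs, TTTGGCGC, TTTCCCGC, TTTGCCGC and TTTCGCGC, which can overlap each other. At least 1 match was present for 15 of the 33 genes (45.5%), against 704 of 27025 genes in the whole table (2.6%) and 5.23% of its 7081 genes that reached 10 CPM in either library. The 15 were Mcm3, Mcm5, Mcm6, Mcm7, Orc1, Orc3, Cdc6, Cdt1, Gins3, Pola1, Pold1, Pold3, Pole2, Rfc3 and Lig1, and 9 of them had a match before the start site. The stretches of 80 bases below show genes at both ends of the changes described here: first 4 with an upstream match whose level differed several-fold between cell classes, then Orc3, which has a match and was nearly level, and last Mcm10 and Orc6, which have none in the window and differed between classes. They run 5′ to 3′ along the strand of the gene, and capitals mark the matches, on either strand. In Mcm6 the first run holds 2 overlapping matches, as does the run in Mcm5.
Mcm5 (chr8:75109322-75109401, plus strand): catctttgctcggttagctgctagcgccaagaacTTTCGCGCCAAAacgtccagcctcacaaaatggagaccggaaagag
Mcm6 (chr1:128359741-128359820, minus strand): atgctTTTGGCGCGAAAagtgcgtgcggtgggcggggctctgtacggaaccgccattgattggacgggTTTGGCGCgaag
Cdc6 (chr11:98907977-98908056, plus strand): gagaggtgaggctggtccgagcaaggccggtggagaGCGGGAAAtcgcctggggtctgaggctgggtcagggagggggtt
Orc1 (chr4:108579374-108579453, plus strand): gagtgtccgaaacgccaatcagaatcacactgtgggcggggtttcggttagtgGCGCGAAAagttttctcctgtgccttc
Orc3 (chr4:34614943-34615022, minus strand): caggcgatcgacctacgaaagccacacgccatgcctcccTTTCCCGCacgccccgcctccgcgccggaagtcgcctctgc
Mcm10 (chr2:5012792-5012871, minus strand): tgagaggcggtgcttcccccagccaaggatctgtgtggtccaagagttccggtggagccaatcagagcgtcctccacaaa
Orc6 (chr8:85299552-85299631, plus strand): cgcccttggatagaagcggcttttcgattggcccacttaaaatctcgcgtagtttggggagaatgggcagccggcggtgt
A match is a description of the sequence and not a site at which binding was measured, and the absence of these letters says nothing about E2F at a gene.

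Cells were placed into classes by genes outside the 40. Muscle-rich cells had at least 5% of their UMIs in 28 muscle structural genes. Myog+ cells, which have begun to differentiate, had at least 3 UMIs of Myog, and Pax7+ progenitors at least 1 UMI of Pax7 and at most 1 of Myog, all counted after thinning each cell to 10000 UMIs. Pax7+ cells were then split by the summed UMIs of a list of 31 S-phase genes and a list of 39 G2/M genes. Cells with at most 5 S-list and at most 4 G2/M-list UMIs, the 90th percentiles of muscle-rich cells, are called list-low. The others are called S-list cells where the S list was the higher of both relative to its mean, and G2/M-list cells otherwise. This gave 1809 S-list, 1709 G2/M-list and 44 list-low Pax7+ cells in WT and 1316, 1137 and 127 in KO. Of Pax7+ cells, 50.8% (49.1 to 52.4) were S-list cells in WT and 51.0% (49.1 to 53.0) in KO, and 1.24% (0.899 to 1.65) and 4.92% (4.12 to 5.83) were list-low. The S-list cells of the clones were not alike. Their medians were 32 S-list and 21 G2/M-list UMIs in WT and 23 and 8 in KO. The list-low class moves with its limits. It held 19 cells in WT and 53 in KO with limits at the 80th percentile, 118 and 310 at the 95th, 28 and 84 with the 6% highest doublet scores removed, and from 19 to 121 and from 53 to 327 with muscle limits of 10% and 2%. With at least 2 Pax7 UMIs it held 23 and 64, and with histones in place of the S list 258 and 587. Of the 44 WT cells 31 lie within 2 UMIs of the S limit, as do 89 of the 127 KO cells. Myog+ cells numbered 876 cycling and 324 list-low in WT and 616 and 230 in KO, by the same limits, and muscle-rich cells 787 and 785. Another 1599 WT and 1122 KO cells met none of these gates. They had 2519 and 1874 CPM of the 40 genes together, and 119 and 3876 CPM of 12 fibroblast markers. Within 0.5 log2 units of the line between the S-list and G2/M-list classes lay 770 of 3518 WT and 473 of 2453 KO cells.

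Histone transcripts were higher in the G2/M-list class than in the S-list class. Replication-dependent histone transcripts had a median of 6 UMIs per thinned cell in S-list cells and 21 in G2/M-list cells of WT, and of 2 and 4 in KO. Within S-list cells, those with over 3 histone UMIs had medians of 34 S-list UMIs in WT and 39 in KO, against 26 and 19 in the rest. How fully a 3' tag library captures histone transcripts was not tested, so their counts are not taken as a measure of DNA synthesis. Muscle-rich cells had a median of 2 histone UMIs in WT and 6 in KO, with 324 and 680 CPM of histones in all, so those of KO were not low in histones against S-list cells of KO, at 715 CPM. The classes are therefore called by their lists and not replicating or mitotic. The 4 endothelial markers summed to at most 2.03 CPM in these classes, and the 4 blood markers were lower still. The 12 fibroblast markers together were at 501 CPM in list-low Pax7+ cells of WT and 3372 CPM in those of KO, led by Col3a1 and Slpi, with Thy1 at 0 in both, against 108 and 713 CPM in S-list cells. Crabp1 alone was at 434 CPM in list-low cells of KO, where 12 of 127 cells held at least 2 of its UMIs, against 0 of 44 in WT, which allows a share of up to 6.82%. The counts that rest on the list-low class are also given without these cells. The list-low class of WT holds 1034434 UMIs in all, of which 789 are from the 40 genes, so its single-gene values have wide intervals.

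Together the 40 genes were at 3125, 2000 and 763 CPM in S-list, G2/M-list and list-low Pax7+ cells of WT and at 2694, 1884 and 682 CPM in KO. Cycling Myog+ cells had 1718 CPM in WT and 1963 CPM in KO, list-low Myog+ cells 515 and 643 CPM, and muscle-rich cells 411 and 393 CPM. In both libraries the S-list class was thus highest and the muscle-rich class lowest. Since the classes were cut by S-phase and G2/M genes, which are known to move with replication genes, a difference in the summed level between S-list and list-low cells follows in part from the cut. What it does not fix is how far each gene differs and which genes stay level.

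**Figure D1:**
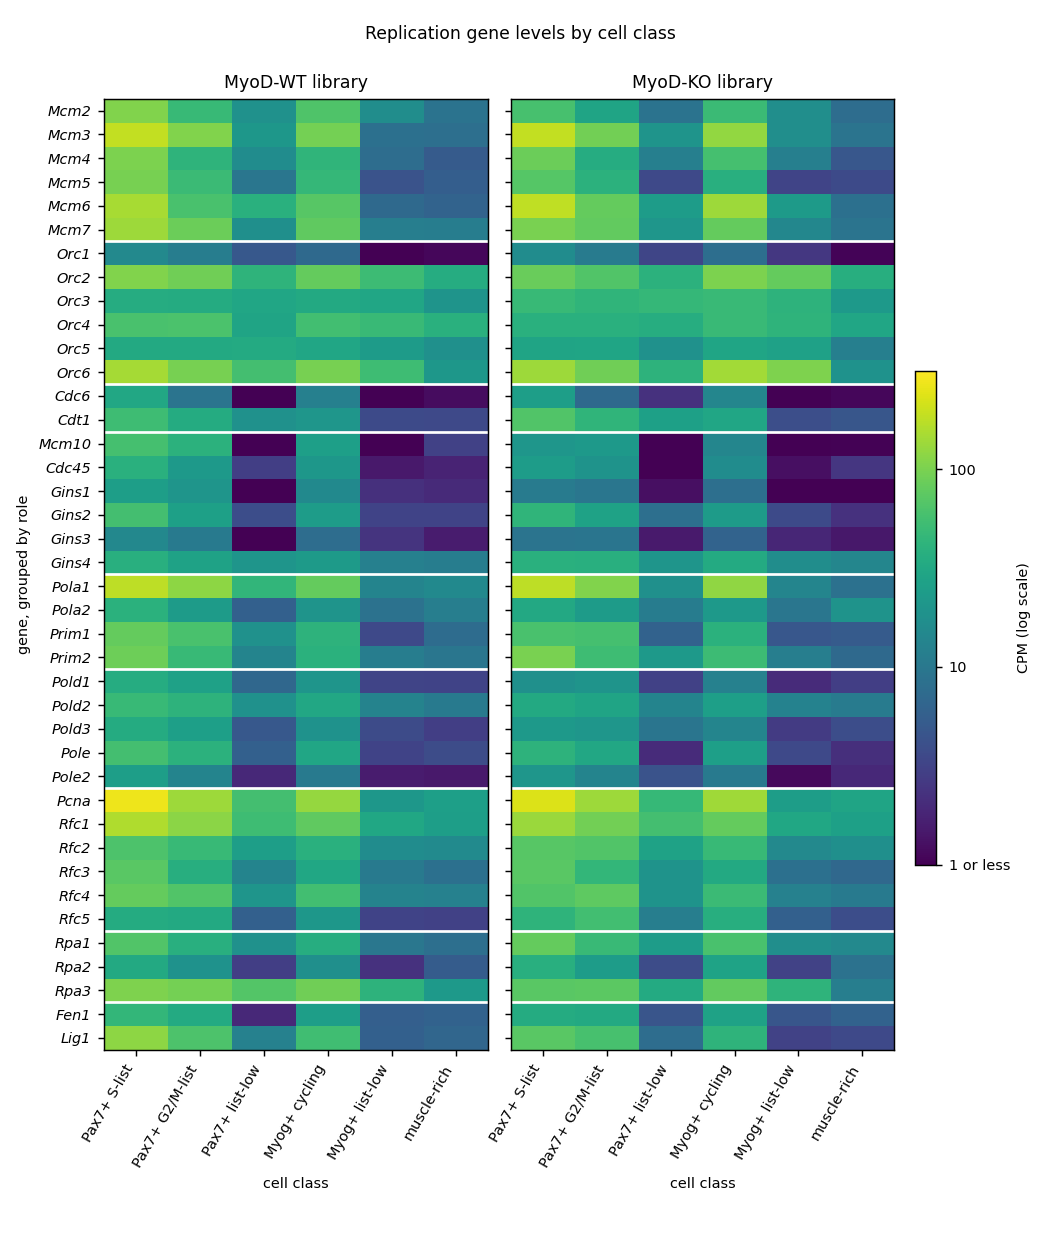
Level of each of the 40 genes (rows, grouped by role between white lines) in 6 cell classes (columns) of the MyoD-WT and MyoD-KO libraries, as CPM on a log colour scale with values of 1 or less in the darkest colour. Each square is the sum over the cells of 1 class of 1 library; most rows are brightest in Pax7+ S-list cells, while Orc3, Orc4 and Orc5 hold a like colour through to list-low Myog+ cells.

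A gene is counted as higher or lower here where the classes differed at least 2-fold and the higher of them had at least 10 CPM. From list-low to S-list Pax7+ cells, 36 of 40 genes were higher in WT, where 13% of all 8536 genes measured were, and 35 of 39 in KO, where 7.32% of 8940 were. None was lower, against 10.5% and 7.48% of all genes. The median log2 ratio was 2.48 in WT and 2.29 in KO, against 0.14 and 0.02 over all genes, and 34 genes were higher in both. Without the Crabp1 cells the counts were 36 and 36. With histones in place of the S list in the gate the counts were 11 and 12. Its limit was then 10 UMIs in place of 5. The list-low class then held 258 cells in WT and 587 in KO, and the class in place of S-list cells 1610 and 589. The part of each change in the lower counts was not tested. The genes not past 2-fold were Orc3, Orc5, Gins4 and Rpa3 in WT and Orc3, Orc4, Orc5 and Gins4 in KO, and Gins3 was under the minimum level in KO.

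The MCM helicase subunits, which unwind the template, were all at least 2-fold higher in S-list than in list-low cells of both libraries. Mcm5 (ENSMUSG00000005410) differed most, with 97.2, 50.6 and 9.67 CPM in S-list, G2/M-list and list-low Pax7+ cells of WT and 69.1, 40.2 and 3.57 CPM in KO. Its S-list level was 10.1-fold the list-low level in WT (5.46 to 20.97) and 19.4-fold in KO (11.5 to 35.5). Mcm6 (ENSMUSG00000026355) differed least on the average of both libraries, with 149.8, 60.5 and 38.7 CPM in WT and 183, 80.4 and 23.9 CPM in KO. The ratios of Mcm6 were 3.87 (2.84 to 5.43) and 7.64 (6.23 to 9.46). A UMI of Mcm5 was found in 60.4% of S-list cells and 6.82% of list-low cells of WT and in 44.8% and 0.787% of those of KO, at the same thinned depth. Muscle-rich cells, the class with the lowest level of the 40 genes, had one in 3.68% in WT and 3.44% in KO, so the KO list-low share is not above that of muscle-rich cells. The ratios of Mcm2, Mcm3, Mcm4 and Mcm7 lay from 5.76 to 8.86 in WT and from 4.89 to 9.47 in KO.

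The origin recognition complex, the platform on which MCM is loaded, did not move as a block. Orc1 (ENSMUSG00000028587), the subunit known to be removed from chromatin after S phase, was at 15.2, 11.5 and 4.83 CPM in S-list, G2/M-list and list-low cells of WT and 16.3, 11.03 and 3.31 CPM in KO. Orc1 was 3.14-fold higher in S-list than in list-low cells of WT (1.34 to 9.68) and 4.91-fold higher in KO (2.86 to 9.27). Orc6 was 2.61-fold and 3.25-fold higher, and Orc2 2.48-fold and 2.09-fold. Orc3 (ENSMUSG00000040044) was nearly level, at 35.5, 34.6 and 29.97 CPM in WT and 48.2, 43.6 and 46.1 CPM in KO, with ratios of 1.18 (0.832 to 1.75) and 1.04 (0.898 to 1.22). For Orc5 the ratio was 0.973 (0.697 to 1.40) in WT and 1.57 (1.24 to 2.02) in KO. The libraries parted at Orc4, with 2.09 (1.46 to 3.11) in WT and 1.06 (0.893 to 1.26) in KO, and these intervals do not overlap.

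Of the licensing factors, Cdc6 (ENSMUSG00000017499), the ATPase that loads MCM with Cdt1, was at 31.5 and 9.14 CPM in S-list and G2/M-list cells of WT and had no UMI in its list-low cells. Its S-list level was at least 10.9-fold higher than the limit that 3 UMIs over that class would give. In KO Cdc6 was at 24.96, 7.12 and 2.29 CPM, a ratio of 10.9 (5.72 to 23.9). Cdt1 (ENSMUSG00000006585) changed less, with 52.4, 34.2 and 18.4 CPM in WT and 65.7, 43.1 and 26.5 CPM in KO and ratios of 2.85 (1.82 to 4.75) and 2.48 (2.04 to 3.05).

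The helicase-activating factors spanned the widest range. Mcm10 (ENSMUSG00000026669), which helps the assembled helicase to start, was at 57.98 and 40.6 CPM in S-list and G2/M-list cells of WT and had no UMI in the list-low cells, so that the S-list level was at least 19.99-fold higher by the same limit. In KO Mcm10 was at 20.4, 21.9 and 0.509 CPM, the last from 2 UMIs, a ratio of 40.1 (11.1 to 332). A UMI of Mcm10 was found in 39.8% of WT and 15.1% of KO S-list cells, and in 2.41% and 1.40% of muscle-rich cells. Cdc45, a subunit of the active helicase, was 13.4-fold higher in WT and 31.4-fold higher in KO, with intervals of 4.59 to 65.2 and 10.7 to 153. Gins1, Gins2 and Gins3 had ratios of 8.71, 5.30 and 5.97 in KO. In WT, where the list-low cells held 1 UMI each of Gins1 and Gins3, the ratios were 26.1 (4.67 to 1030.0), 14.6 (5.69 to 53.6) and 15.3 (2.74 to 605). Gins4 (ENSMUSG00000031546), although its protein works in a complex with these, was at 37.6, 27.8 and 20.3 CPM in WT and 38.9, 38.1 and 20.1 CPM in KO, with ratios of 1.85 (1.21 to 2.99) and 1.93 (1.54 to 2.45). The lower bounds for Gins1, Gins2 and Cdc45 lie above the upper bounds for Gins4 in both libraries.

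The 9 polymerase subunits among the 40 genes were each at least 2-fold higher in S-list than in list-low cells of both libraries. Of the subunits outside the 40, Pold4 was lower in both, Pole4 was at 1.54 and 1.25 of its list-low level in WT and KO, and Pole3 at 2.25 and 1.55. Among those of primase and polymerase alpha, which lay down the first bases of a strand, Prim1 (ENSMUSG00000025395) was at 81.3, 60.9 and 18.4 CPM in WT and 60.6, 58.2 and 6.11 CPM in KO. Its ratio was 4.43 (2.83 to 7.36) in WT and 9.91 (6.65 to 15.5) in KO. Pola2 (ENSMUSG00000024833) had 39.6, 23.6 and 5.80 CPM and 32.5, 23.4 and 11.2 CPM, ratios of 6.83 (3.13 to 18.6) and 2.90 (2.15 to 4.00). The intervals of the pair overlap in WT and not in KO. Pola1 and Prim2 had ratios of 4.00 and 6.58 in WT and 10.1 and 4.39 in KO. Of the replicative polymerases, Pole (ENSMUSG00000007080), the catalytic subunit of the leading-strand enzyme, was at 56.8, 40.7 and 5.80 CPM in WT and 41.2, 31.4 and 2.04 CPM in KO, with ratios of 9.80 (4.50 to 26.7) and 20.2 (10.2 to 46.9). Pold2 (ENSMUSG00000020471), an accessory subunit of the lagging-strand enzyme, was at 48.7, 41.5 and 18.4 CPM and 32.9, 29.1 and 13.5 CPM, with ratios of 2.65 and 2.43. Pold1 and Pold3 had ratios of 5.18 and 7.14 in WT and 5.92 and 2.36 in KO, and Pole2 had 12.9 (3.57 to 107) and 4.73 (2.94 to 8.16).

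Pcna (ENSMUSG00000027342), the sliding clamp, was at 271, 137 and 56.1 CPM in S-list, G2/M-list and list-low cells of WT and 231, 137 and 47.4 CPM in KO. Its ratio was 4.84 (3.74 to 6.37) in WT and 4.89 (4.23 to 5.68) in KO. The clamp loader subunits were also higher, Rfc2 (ENSMUSG00000023104) by the least on average, at 63.8, 48.5 and 25.1 CPM in WT and 70.2, 66.9 and 27.8 CPM in KO, with ratios of 2.54 and 2.53. Rfc1, Rfc3, Rfc4 and Rfc5 lay from 2.96 to 5.92 in WT and from 2.35 to 3.73 in KO. The 3 RPA subunits form a trimer, but their transcripts differed. Rpa2 (ENSMUSG00000028884) was at 32.7, 18.8 and 2.90 CPM in WT and 38.2, 23.8 and 3.82 CPM in KO, with ratios of 11.3 (3.86 to 54.8) and 9.99 (6.04 to 17.9). Rpa3 (ENSMUSG00000012483) was at 103, 95.01 and 67.7 CPM and 72.98, 74.5 and 33.9 CPM, with ratios of 1.53 (1.21 to 1.96) and 2.15 (1.81 to 2.58), and Rpa1 had 3.57 and 3.34. The flap nuclease Fen1 (ENSMUSG00000024742) was at 45.7, 33.7 and 1.93 CPM in WT and 34.7, 32.7 and 4.58 CPM in KO, and DNA ligase 1, Lig1 (ENSMUSG00000056394), at 120.2, 63.8 and 12.6 and 72.4, 59.3 and 7.89 CPM. The ratios of Fen1 were 23.6 (6.53 to 195) and 7.57 (4.77 to 12.8), and those of Lig1 9.56 (5.59 to 17.97) and 9.17 (6.45 to 13.5).

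Among the genes in the promoter table, the 15 with an E2F-type match had a median log2 ratio, averaged over both libraries, of 2.63, and the 18 without one had 2.01. Both sets held nearly level genes, Orc3 at 0.15 among the former and Orc5 at 0.31 among the latter. Both also held a gene with no UMI in list-low WT cells, Cdc6 and Mcm10.

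From S-list to G2/M-list cells the change was small for most of the 40. At least 2-fold lower were 5 of 40 genes in WT (0.306% of all genes measured) and 5 of 39 in KO (0.361%), and none was higher, against 1.35% and 2.06% of all genes. Mcm2, Mcm4, Mcm6 and Cdc6 were lower in both libraries, Gins2 in WT and Mcm3 in KO. Of these 6 genes 4 encode MCM subunits, while the licensing factor Cdt1 was at 0.653 and 0.655 of its S-list level. Cdc6 differed most, with a G2/M-list level 0.290 times the S-list level in WT (0.266 to 0.317) and 0.285 times in KO (0.254 to 0.320). For Mcm6 these ratios were 0.404 and 0.440. By contrast Orc4 was at 1.01 and 1.01, and Rfc5 at 0.969 (0.914 to 1.03) and 1.32 (1.25 to 1.40). The median log2 ratio was -0.54 in WT and -0.39 in KO, against 0.0032 and 0.021 over all genes. At 1.5-fold the counts of lower genes were 19 and 15, and with histones in place of the S list they were 0 and 0.

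Pax7+ cells were also ordered along 6 steps by both lists, with limits chosen after the data had been seen. The first holds the list-low cells. The next are S low and G2/M low, then S high with G2/M low, S high with G2/M middle, S high with G2/M high, and last S low with G2/M high, with limits of 20 S-list UMIs and of 20 and 60 G2/M-list UMIs. The step of S low and G2/M low held 7.36% of Pax7+ cells in WT (6.52 to 8.26) and 23.3% in KO (21.7 to 25.0). The summed level of the 40 genes along these steps was 763, 1604, 3611, 2955, 2075 and 1805 CPM in WT and 682, 1455, 3509, 3167, 2313 and 1561 CPM in KO. The highest step was the third, S high with G2/M low, for 31 of 40 genes in WT and 24 of 40 in KO, the next one for 7 and 14, and S high with G2/M high for 2 and 2. The highest step was the same in both libraries for 24 of 40 genes. Cdc6 went from 53.4 CPM at the third step to 10.4 CPM at S high with G2/M high in WT and from 46.3 to 8.44 CPM in KO. Lig1, which acts late in the reaction, went from 131 to 119 CPM between the third and the fourth step in WT and from 88.6 to 106 CPM in KO. Orc5, Gins4, Pold1, Rfc4, Rfc5 and Rpa3, 6 of the 40, were highest after the third step in both libraries, some of them in WT by little. From the third to the fourth step of WT, Gins4 went from 38.11 to 38.15 CPM and Pold1 from 36.97 to 36.98 CPM. Orc5 was nearly level in WT, its highest step at 1.09 times its lowest. Rfc4, also by little in WT, had 84.2, 84.9 and 65.99 CPM over the 3 S-high steps in WT and 71.99, 96.01 and 86.5 CPM in KO. At the last step 20 of 40 genes in WT and 21 of 40 in KO were at least 2-fold under the third, where 1.42% and 2.19% of all genes were.

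**Figure D2:**
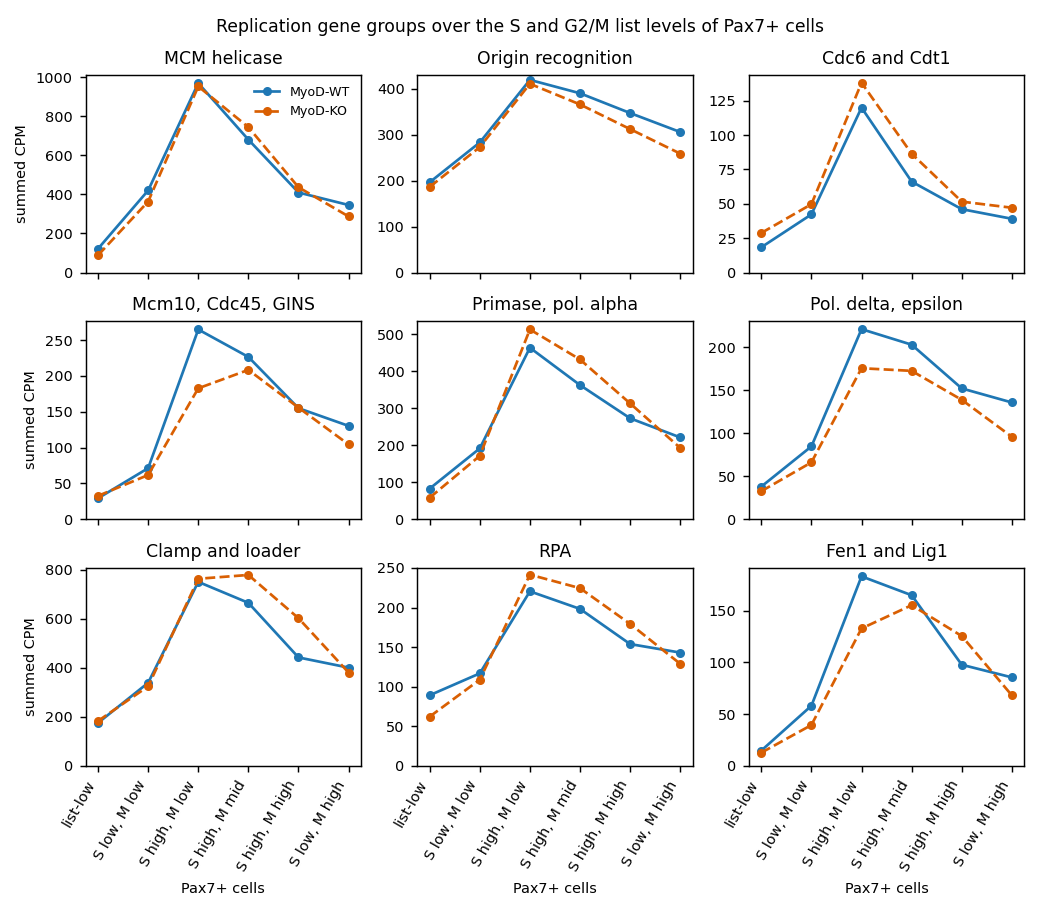
Summed CPM of each role group (panels, vertical axes from 0) in Pax7+ cells at the 6 steps of S-list and G2/M-list level (horizontal axis), for the MyoD-WT library (solid) and the MyoD-KO library (dashed), 1 value per library and step without replicates. Most groups are highest at S high with G2/M low, and the Mcm10, Cdc45 and GINS, polymerase delta and epsilon, and Fen1 and Lig1 groups are lower in KO than in WT at that step.

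Splitting the S-list cells at 3 histone UMIs gave the 40 genes a summed level of 3330 CPM in histone-high and 2730 CPM in histone-low cells of WT, and 3393 and 2370 CPM in KO. None was 2-fold higher in the histone-high cells of WT (1.55% of all genes were), and Mcm10, Cdc45 and Gins3 were in KO (2.67%). Histone-high cells were 62.0% of S-list cells in WT (59.7 to 64.2) and 28.7% in KO (26.3 to 31.3).

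Cycling Myog+ cells are those above the S-list or G2/M-list limit, so that a level of replication genes above that of list-low cells follows in part from the cut. Against S-list Pax7+ cells, cycling Myog+ cells had at least 2-fold lower levels of 16 of 40 genes in WT (5.81% of all genes). In KO 3 of 39 were lower, a share near the 7.18% of all genes. Orc1, Cdt1 and Rfc3 were lower in both. The median log2 ratio was -0.90 in WT and -0.54 in KO. In WT the intervals of all 40 genes lay below 1. In KO those of Orc2, Orc4, Orc6 and Rpa3 lay above 1 and those of Orc3 and Orc5 included it. The cycling Myog+ cells of the clones were not alike in other respects: their medians were 27 G2/M-list and 56 muscle-gene UMIs in WT and 8 and 19.5 in KO, and the part of this in the difference was not tested. Removing the 6% highest doublet scores took all Myog+ cells from 1200 to 1004 in WT and from 846 to 821 in KO. S-list cells of WT then went from 1809 to 1765. This comparison was not recomputed without those cells.

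In list-low Myog+ cells the machinery was low except for most of the origin recognition complex. At least 2-fold lower than in cycling Myog+ cells were 32 of 38 genes in WT (10.2% of all genes) and 30 of 37 in KO (11.4%), 29 of them in both, and none was higher, against 4.25% and 4.07% of all genes. The median log2 ratio was -2.47 in WT and -2.47 in KO, against -0.17 and -0.10 over all genes. With histones in place of the S list 17 genes were lower in KO. All 6 MCM genes were lower in both libraries, Mcm5 going from 46.8 to 4.41 CPM in WT and from 37.6 to 3.29 CPM in KO. Mcm10 went from 25.7 to 0.816 CPM in WT, a ratio of 0.0317 (0.0152 to 0.0586), and from 14.02 to 0.194 CPM in KO, a ratio of 0.0138 (0.00167 to 0.0502) with 2 UMIs left. Cdc6 was at 0.735 and 0.678 CPM in list-low Myog+ cells, and Cdt1 at 3.67 and 3.97 CPM, under its 18.4 and 26.5 CPM in list-low Pax7+ cells.

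Of the genes measured in this comparison in both libraries, 5 were less than 2-fold lower in both, namely Orc2, Orc3, Orc4, Orc5 and Orc6. Orc2, Orc4 and Orc6 are among 11 of the 40 genes that overlap a gene on the opposite strand (with Mcm7, Cdc45, Gins2, Rfc2, Rfc4, Rfc5, Fen1 and Lig1, by the GENCODE M21 annotation of GRCm38), and whether counting used strand is not given in the sources used here, so reads of such pairs cannot be told apart if it did not. Orc2 was at 106, 42.5, 80.3, 52.3 and 35.1 CPM in S-list and list-low Pax7+, cycling and list-low Myog+ and muscle-rich cells of WT, and at 83.9, 40.2, 102, 81.1 and 36.8 CPM in KO. Orc3 was at 32.8, 30.4 and 19.6 CPM in cycling Myog+, list-low Myog+ and muscle-rich cells of WT and 49.5, 41.2 and 22.7 CPM in KO. Orc4 was at 55.03, 49.5 and 38.2 CPM in WT and 49.4, 42.1 and 30.02 CPM in KO, and Orc5 at 30.5, 23.3 and 18.02 CPM and 29.4, 26.8 and 11.96 CPM. Orc6 (ENSMUSG00000031697), a small subunit known to act outside the complex too, was at 96.1, 52.6 and 20.9 CPM in WT and 143, 104 and 18.6 CPM in KO. In KO its level in list-low Myog+ cells stood above that in list-low Pax7+ cells, 41.8 CPM, and in WT it was close to it, 56.1 CPM. A UMI of Orc6 was found in 33.3% of list-low Myog+ cells of WT and 63.9% of those of KO, and in 15.8% and 15.3% of muscle-rich cells. Orc1, under the minimum level in this comparison, was at 7.23 and 0.898 CPM in cycling and list-low Myog+ cells of WT and 7.96 and 2.52 CPM in KO. Just short of 2-fold in 1 library were Gins4, at 0.525 of its cycling level in WT and 0.498 in KO, Pold2 at 0.410 and 0.5003, and Rpa3 at 0.451 and 0.529.

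**Figure D3:**
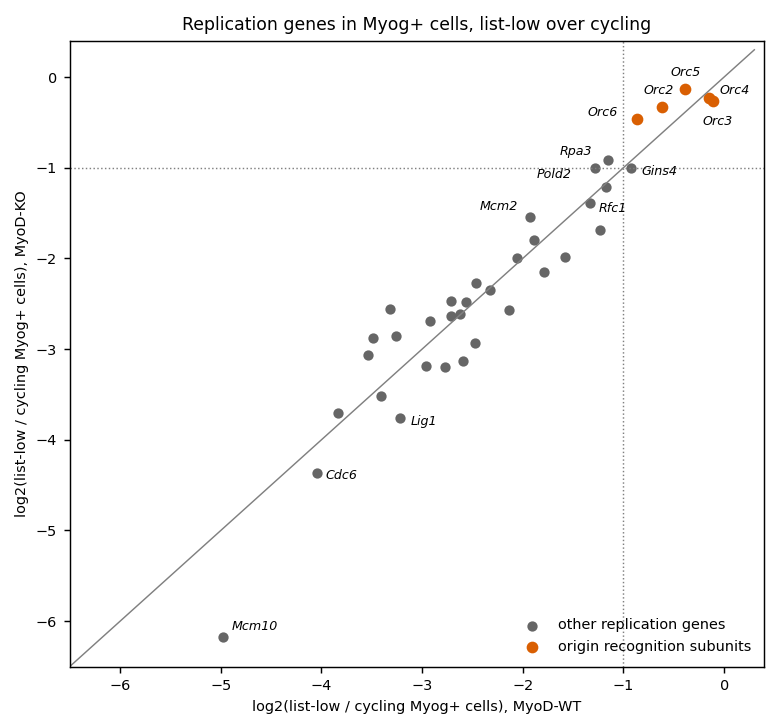
Log2 ratio of the level in list-low over cycling Myog+ cells, MyoD-WT on the horizontal and MyoD-KO on the vertical axis, for the 37 genes measured in both; the line marks equal ratios and the dotted lines 2-fold lower. The 5 origin recognition subunits (orange) are the only points right of and above both dotted lines, and Mcm10 has the lowest ratio in both libraries.

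Muscle-rich cells had the lowest summed level, with members of the origin recognition complex the least reduced in WT. Against all Pax7+ cells together, 37 of 40 genes were at least 2-fold lower in WT (33.7% of all genes) and 35 of 38 in KO (33.9%), 33 in both. Short of 2-fold were Orc3, Orc4 and Orc5 in WT and Orc2, Orc4 and Pola2 in KO. From list-low Myog+ to muscle-rich cells, 1 of 18 genes was lower in WT, Orc6, a share near the 6.48% of all genes. In KO 7 of 21 were lower (16.6% of all genes), Mcm2, Mcm4, Mcm6, Orc2, Orc5, Orc6 and Rpa3. The ratio of Orc6 was 0.397 in WT (0.355 to 0.443) and 0.180 in KO (0.164 to 0.197). Against list-low Pax7+ cells, 12 of 25 genes were lower in WT (27.6%) and 13 of 23 in KO (31.5%), 8 in both (Mcm3, Mcm4, Mcm6, Orc6, Cdt1, Pola1, Rfc1 and Rpa3), and the counts were 12 and 13 without the Crabp1 cells as well. The muscle genes themselves took 78433 CPM of muscle-rich cells in WT and 100413 CPM in KO, and with TMM scaling, which moved every log2 ratio of this comparison up by 0.57 in WT and 0.64 in KO, the counts of lower genes were 4 and 2. Pola2 was the 1 gene at least 2-fold higher in muscle-rich than in list-low Pax7+ cells of WT, where 13% of all genes were. It was at 11.8 and 5.80 CPM, with an interval that includes 1. In KO none was at least 2-fold higher (12.1% of all genes), and Pola2 was at 19.3 and 11.2 CPM.

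Between the clones, most replication genes were a little lower in KO, and Mcm10 and Gins1 were more than 2-fold lower. Of 39 genes measured over all cells, 31 were below and 8 above their WT level, with a median log2 ratio of -0.29 where that of all genes was 0.08. The 2-fold rule was met by 2 of the 39 as lower, a share near the 3.4% of all genes, and by none as higher (13.3% of all genes). Mcm10 was at 37.5 CPM in WT and 13.9 CPM in KO, a KO/WT ratio of 0.371 (0.356 to 0.385). Gins1 (ENSMUSG00000027454), a GINS subunit, was at 18.3 and 7.18 CPM, a ratio of 0.393 (0.372 to 0.415). Next were Pold1 at 0.538 and Mcm2 at 0.540, and the highest were Rpa1 at 1.22, Orc3 at 1.26 and Rfc5 at 1.31. TMM scaling moved all log2 ratios by -0.18, and Mcm2 and Pold1 then also passed, making 4 lower genes. Without cells holding at least 2 Crabp1 UMIs, 2 genes were lower and 0 higher.

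**Figure D4:**
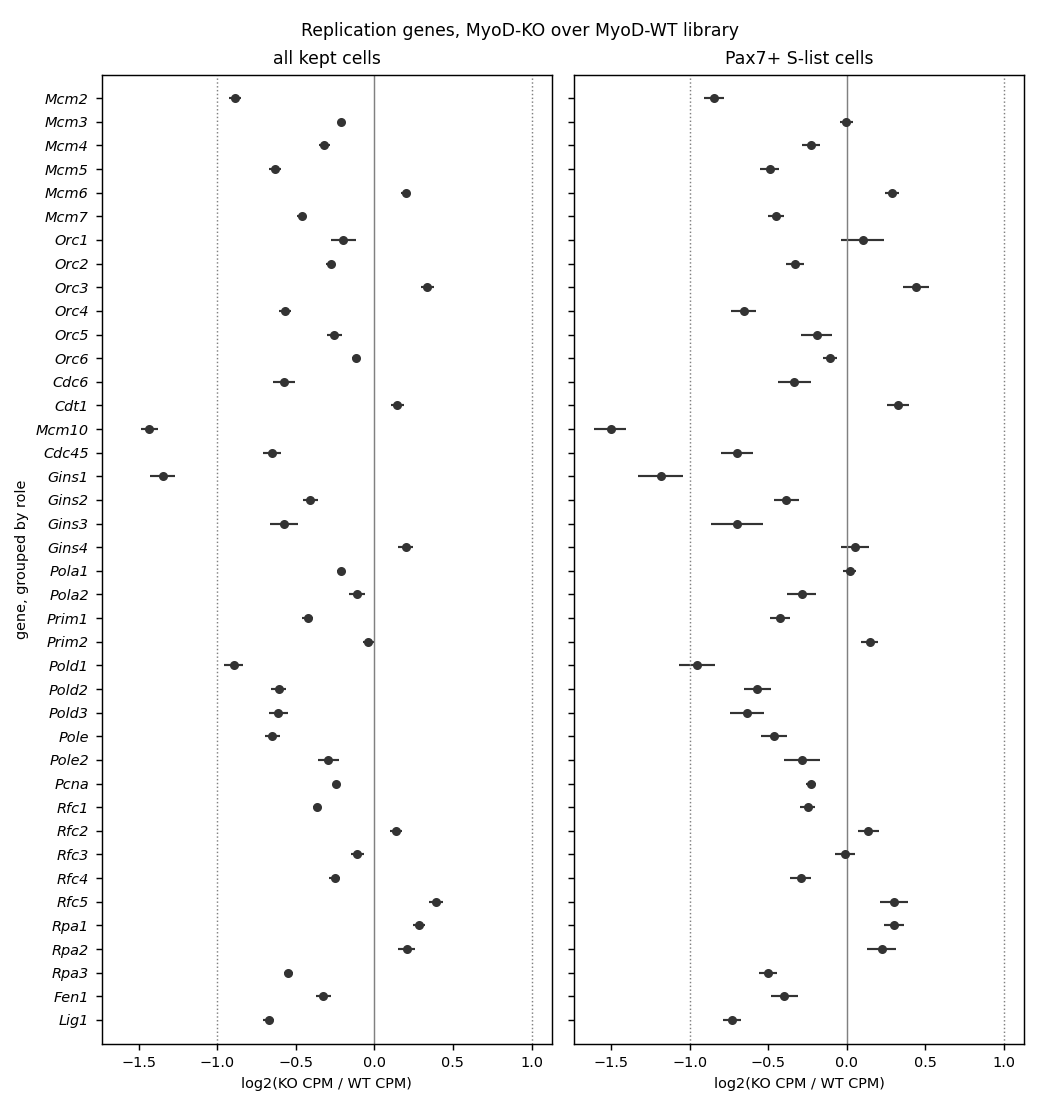
Log2 ratio of MyoD-KO over MyoD-WT level for the 40 genes over all kept cells (left) and over Pax7+ S-list cells (right); bars are 95% counting intervals from 1 library per genotype, the solid line marks equal levels and the dotted lines a 2-fold difference. Mcm10 and Gins1 lie left of the lower dotted line in both panels, and no gene reaches the upper one.

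The lower levels were also present within classes. In S-list cells Mcm10 was at 0.353 of its WT level (0.329 to 0.378) and Gins1 at 0.440 (0.398 to 0.486). These were the 2 of 40 genes past 2-fold there, a share near the 4.22% of all genes that were lower. In G2/M-list cells only Gins1 passed, at 0.475 (0.429 to 0.524), with Mcm10 at 0.539 (0.504 to 0.576), where 4.31% of all genes were lower. In cycling Myog+ cells no gene passed (4.7% of all genes lower), and Gins1 was at 0.528 and Mcm10 at 0.545. Along the steps of Pax7+ cells Mcm10 was at 9.46, 70.8, 57.1, 45.8 and 34.3 CPM in WT from the second to the last step and at 2.30, 26.3, 37.3, 27.6 and 17.4 CPM in KO. Gins1 was at 10.02, 28.5, 24.9, 22.9 and 18.00 CPM in WT and 3.65, 14.5, 16.7, 11.8 and 7.73 CPM in KO. Both were lower in KO at each of these 5 steps. With KO classes weighted to the WT shares of classes, the log2 ratio was -1.29 for Mcm10 and -1.22 for Gins1, and the median over the genes was -0.21. The small difference of the other genes was not present in every class. In Myog+ cells 21 genes were above and 16 below their WT level (14 and 23 with TMM scaling), and of Pax7+ cells that were S high with G2/M middle 24 of 40 were above.

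The difference between the clones did not run the same way for all parts of the machinery. Intervals wholly below 1 in S-list, G2/M-list and cycling Myog+ cells alike were found for 12 genes, namely Mcm2, Mcm5, Orc4, Mcm10, Cdc45, Gins1, Pold1, Pold2, Pold3, Pole, Rpa3 and Lig1. Intervals wholly above 1 in these 3 classes were found for 8, Mcm6, Orc3, Cdt1, Prim2, Rfc2, Rfc5, Rpa1 and Rpa2. With TMM scaling Prim2 turned to below WT in S-list and G2/M-list cells and Rfc2 in S-list cells, and the other 6 stayed above in both of these classes. TMM scaling was not run for cycling Myog+ cells. The subunits of 1 complex thus went opposite ways. In S-list cells Mcm2 was at 106 CPM in WT and 58.9 CPM in KO and Mcm6 at 149.8 and 183 CPM, KO/WT ratios of 0.556 (0.532 to 0.581) and 1.22 (1.19 to 1.26). Rpa3 was at 0.707 of WT in these cells and Rpa1 at 1.23. Of the polymerase delta subunits, Pold1 was at 0.516, Pold2 at 0.674 and Pold3 at 0.644 of WT in S-list cells, while Pold4, which is not among the 40, had 6.90 CPM in those of WT and 118 CPM in KO. Of 21 genes measured in list-low Myog+ cells, only Mcm3 and Mcm6 were more than 2-fold higher in KO, a share near the 11.1% of all genes. They were at 17.04 against 8.41 CPM and 23.1 against 7.18 CPM, so Mcm3 passed by little. TMM scaling was not run for these cells either. With TMM scaling 6 in place of 11 of the 40 genes stayed above 1 in S-list cells, so the direction of the small differences depends on the scaling. S-list cells of WT held 3097 CPM of the S-phase list itself and those of KO 2648 CPM, with 1413 and 715 CPM of histones and 108 and 713 CPM of the 12 fibroblast markers, and the part of these in the difference was not tested.

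The rest of the pathway was taken from lists of 33 accessory replication factors, 15 E2F and retinoblastoma family genes and 10 checkpoint genes. From list-low to S-list Pax7+ cells, 25 of 31 accessory genes measured were at least 2-fold higher in WT and 22 of 31 in KO (13% and 7.32% of all genes), and 1 was lower in each (10.5% and 7.48% of all genes). Ticrr, which helps to load Cdc45, was at 19.2 CPM in WT and 13.4 CPM in KO S-list cells, and Dscc1, of an alternative clamp loader, at 21.00 and 11.96 CPM, and both had no UMI in list-low cells of either library. Top1, the topoisomerase that relieves supercoils, was level at 367 and 328 CPM in S-list and list-low cells of WT and 231 and 248 CPM in KO. The lower gene in both libraries was Pold4, the smallest polymerase delta subunit, at 6.90 and 117 CPM in WT and 118 and 259 CPM in KO. Over all cells Pold4 was 14.4-fold higher in KO (13.8 to 14.97), at 125 against 8.68 CPM, while the catalytic subunit Pold1 and the subunits Pold2 and Pold3 were lower. The only other accessory gene past 2-fold between the clones was Rnaseh2c, chosen for naming after its value was seen, with 99.5 CPM against 42.3 CPM in WT.

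Of the E2F and retinoblastoma family genes, 10 of 15 were at least 2-fold higher in S-list than in list-low cells of WT, where 13% of all genes were, and 7 of 15 in KO, where 7.32% were. None of them was lower. From cycling to list-low Myog+ cells 23 of 28 accessory, 8 of 14 E2F and retinoblastoma and 4 of 9 checkpoint genes were at least 2-fold lower in WT (10.2% of all genes), and 20 of 28, 7 of 14 and 5 of 9 in KO (11.4%). Mybl2, a cell cycle transcription factor, was at 31.3 CPM in WT and 20.02 CPM in KO S-list cells with no UMI in list-low cells. E2f8, a repressor of the family, was at 18.2, 0, 38.7 and 40.7 CPM in S-list and list-low Pax7+, cycling and list-low Myog+ cells of WT and 17.4, 2.04, 58.9 and 53.5 CPM in KO. Rb1, the retinoblastoma gene, was at 41.2, 31.9, 193, 259 and 136 CPM in the same classes and in muscle-rich cells of WT and 33.5, 49.1, 186, 209 and 63.9 CPM in KO. Of these classes it was thus highest in list-low Myog+ cells. Rbl2, its relative, was at 8.38 and 13.5 CPM in S-list and list-low Pax7+ cells of WT and 8.89 and 10.95 CPM in KO. Of the checkpoint genes, 6 of 10 were higher in S-list than in list-low cells of WT (13% of all genes) and 4 of 9 in KO (7.32%). Wee1 and Chek1, kinases that hold back mitosis while DNA is copied, had S-list over list-low ratios of 8.66 and 6.36 in WT and 7.93 and 6.54 in KO. The checkpoint loader gene Rad17 had 1.04 and 0.995, and Rad1, of the checkpoint clamp, 1.34 (0.745 to 2.70) and 1.19 (0.885 to 1.63). Between the clones Cdc25a, the phosphatase that opposes Wee1, was at 43.5 CPM in WT and 21.6 CPM in KO, a ratio of 0.497 (0.481 to 0.513), and was the 1 of 10 checkpoint genes past 2-fold (3.4% of all genes were lower).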

How the data were processed

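Per the file headers, the deposited matrices hold UMI counts per gene and barcode, made by the authors with Cell Ranger 7.2.0 from 10x 3' v3.1 libraries. The submitters' processing notes also name GRCm39 and Seurat, and the counting strand and annotation are not given in the sources used here. Of 8191 WT and 7670 KO barcodes, those with at least 1000 genes and at most 15% mitochondrial UMIs were kept, and doublets called by Scrublet (scanpy 1.11.5) were left out. Scrublet marked 2 WT cells (0.0273%) and 144 KO cells (2.49%), so doublets were hardly removed from WT. Cells were gated after thinning to 10000 UMIs, and 168 WT and 305 KO shallower cells are in no class. A further 1599 WT and 1122 KO cells were deep enough but met no gate. These cells count in the values over all cells, and as a group of their own in the weighting to WT class shares. Members' counts were summed per class and divided by the class total (CPM), with exact Poisson or conditional binomial 95% intervals (scipy 1.17.1) that cover counting error only. With 1 library per genotype no test was made, and genes were counted by a 2-fold rule with at least 10 CPM in the higher group. Genes described in full are, in each role, those with the highest and lowest averaged S-list to list-low ratio, and those past 2-fold between the clones; of each other list, the highest 2 and lowest 2. The members and lists were chosen with earlier results of these data known, and the steps of Pax7+ cells, the alternatives for Myog+ cells and the clone comparison without Crabp1 cells after seeing the data. The ratios, intervals and 2-fold rule were run on simulated Poisson counts, which hold no variation between cells or clones. This checks the computation only. Alternatives were TMM scaling (edgeR 4.0.16), means per cell, other minimums, fold rules, cell filters, doublet removal, thinning and gates.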

Additional observations from a re-analysis of the deposited data

Results flagged for a closer look

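The 5 genes here moved in opposite directions in the 2 clones, each with both counting intervals away from 1. The differences between the clones were not tested, because there is 1 library per genotype. Rfc4 was lower in G2/M-list than in S-list Pax7+ cells of WT, with a log2 ratio of -0.29, and higher in KO, at 0.20. In cycling Myog+ cells against S-list Pax7+ cells, Orc2 had a log2 ratio of -0.40 in WT and 0.28 in KO. Orc4 had -0.14 in WT and 0.36 in KO. Orc6 had -0.61 in WT and 0.08 in KO. Rpa3 had -0.18 in WT and 0.12 in KO. These sizes are all under 2-fold, and the cycling Myog+ cells of the clones also differed in their G2/M-list and muscle-gene UMIs. Doublets were hardly removed from WT, and the ratios in cycling Myog+ cells were not recomputed with the highest doublet scores removed.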

How the results depend on the processing

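Of 156 counts and shares recomputed under the alternatives 121 stayed within 1.5 times or within counting error, as did 2761 of 3535 ratios of single genes. Among ratios that were at least 2-fold under the main rule, 9 changed sign. Sign changes of smaller ratios were not counted. From list-low to S-list Pax7+ cells the higher genes numbered 23 in WT and 20 in KO with a 50 CPM minimum, which leaves fewer genes, and 11 and 12 with histones in place of the S list, where Mcm4 (-0.042), Mcm6 (-0.21), Orc1 (-0.12) and Cdt1 (-0.28) turned negative in WT and Orc1 (-0.13) and Cdt1 (-0.25) in KO. From S-list to G2/M-list cells the lower genes numbered 19 and 15 at 1.5-fold, 0 and 0 with histones (Cdc6 in WT at 0.31), and in KO 3 with phase limits at the 80th percentile and 3 with a muscle limit of 10%. Lower in muscle-rich than in list-low Pax7+ cells were 4 in WT and 2 in KO with TMM, 4 and 1 with a 50 CPM minimum, and 32 and 32 with histones (Pola2 in WT at -0.86), besides 21 at 1.5-fold and 22 on thinning to 5000 UMIs in WT, and 6 at the 80th percentile in KO (Mcm3 at 0.71). Lower in list-low than in cycling Myog+ cells were 10 and 11 with a 50 CPM minimum, and 17 in KO with histones. Lower in KO than in WT over all cells were 4 with TMM, 0 with a 50 CPM minimum and 10 at 1.5-fold. The share of S-list cells among Pax7+ cells was, in WT, 47.9% on thinning to 5000 UMIs, 48.8% at the 95th percentile, 48.9% with a muscle limit of 2%, 46.2% with at least 2 Pax7 UMIs and 45.2% with histones. In KO it was 53.8% at the 80th and 44.3% at the 95th percentile, 43.9% and 53.8% with muscle limits of 2% and 10%, and 22.8% with histones. The causes were not tested beyond what the gate's construction gives. Depth limits the WT list-low Pax7+ class most, with 44 cells. No paired analysis was possible because there is 1 library per genotype.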
